A study of Homo sapiens with 6 samples.

Results

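The genes of the cytosolic ribosome's proteins were compared between U2OS cells with and without a knockdown of squalene epoxidase (SQLE), the enzyme that oxidises squalene in cholesterol synthesis. They were taken by name as protein-coding genes whose symbol is RPL or RPS followed by a digit, together with RPLP0, RPLP1, RPLP2 and RPSA, and with the RPS6K kinases left out. This gave 91 of the 19937 genes in the count table. By subunit, 43 encode proteins of the large subunit, 31 of the small subunit and 3 of the stalk, 10 are paralogs of another ribosomal protein gene, and 4 only share the name pattern. After genes with low counts were removed, 84 of the 91 were among the 12450 genes tested, and these 84 lie on 21 chromosomes. The 7 that were not tested are the paralogs RPL3L and RPL10L, the copies RPS4Y1 and RPS4Y2, and the read-through genes RPL17-C18orf32, RPL36A-HNRNPH2 and RPS10-NUDT3, each of which joins a ribosomal protein gene to its neighbour.

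The cells were of the established osteosarcoma line U2OS, which is of human origin. Poly(A) RNA was sequenced from 3 libraries of cells that stably carried a short hairpin RNA against SQLE (shSQLE) and from 3 libraries of cells that carried a scrambled hairpin (shControl). Both hairpins came from the same lentiviral plasmid, so that both groups went through infection and puromycin selection, and a single hairpin sequence stood for the knockdown. Nothing in the labels ties the libraries to separate infections or cultures, so the p-values below measure the spread between these libraries, which may be technical.

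A ribosome is built from ribosomal RNA and one copy of most of its proteins. Cells therefore make the proteins in step, and their mRNAs are among the most abundant of a growing cell. Most of these mRNAs begin with a cytosine followed by a run of pyrimidines, the 5′ terminal oligopyrimidine (TOP) motif, through which mTOR and the RNA-binding protein LARP1 control their translation and stability. Some ribosomal proteins, RPL5 and RPL11 among them, also bind MDM2, the ligase that degrades p53, when ribosome assembly is disturbed.

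The pyrimidine run is shown for 7 genes to which the results below return, and its absence for 3 paralogs. The windows hold 30 bases, and the transcription start is the 16th base. This choice of genes does not part paralogs from the others. RPL32 and RPL17, of the large subunit, also lack the run, and the paralogs RPL22L1 and RPL36AL have it. The windows are RefSeq sequence of GRCh38.p14 on the gene's own strand. Capitals mark the unbroken run of C and T that contains the start base.
RPL29 (chr3:51995881-51995910, - strand): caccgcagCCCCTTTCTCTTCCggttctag
RPL13A (chr19:49487593-49487622, + strand): cgacaaaaCCTCCTCCTTTTCCaagcggct
RPL22 (chr1:6199581-6199610, - strand): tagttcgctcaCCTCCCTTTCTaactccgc
RPS6 (chr9:19380222-19380251, - strand): aagcggaagttggCCCTCTTTTCCgtggcg
RPS19 (chr19:41860240-41860269, + strand): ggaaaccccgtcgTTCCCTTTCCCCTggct
RPLP1 (chr15:69452803-69452832, + strand): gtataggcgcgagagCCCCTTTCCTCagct
RPLP2 (chr11:809952-809981, + strand): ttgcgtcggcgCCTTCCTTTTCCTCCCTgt
RPL7L1 (chr6:42879601-42879630, + strand): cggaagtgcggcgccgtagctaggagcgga
RPL26L1 (chr5:172958714-172958743, + strand): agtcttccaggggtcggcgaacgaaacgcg
RPS27L (chr15:63157463-63157492, - strand): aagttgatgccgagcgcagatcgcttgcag

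RefSeq promoter sequence was at hand for 67 of the 84 genes tested, with 83 starts. A run of at least 8 pyrimidines over the start base was found at a start of 47 of the 67 genes (70.15%), against 6.98% of the 10057 other genes tested and 5.944% of all 27305 genes in the promoter table. The start base was a C in 51 of the 67 (76.12%), against 16.07% of the other genes tested. The letters CTTTC, which can lie within such a run, occurred in the 30-base window of 32 of the 67 genes (47.76%) and in 5.857% of the other genes tested. On the opposite strand, where they read GAAAG, the shares were 2.985% and 3.57%. The definition of the run was set after these sequences had been seen. The match describes sequence and says nothing of which start these cells used.

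The knockdown was read first. The normalized count of SQLE, the count scaled to the mean effective library size by TMM, was 1349, 1867 and 1924 in the shControl libraries and 229.1, 204 and 218.9 in the shSQLE libraries, each in the order of replicates 1, 2 and 3, an order kept below. The groups did not overlap, and the shSQLE mean was 12.69% of the shControl mean (log2 fold change -2.98, SE 0.17, adjusted p = 0.000299 in the quasi-likelihood test of edgeR, adjusted after Benjamini and Hochberg over all 12450 genes). The libraries held 12212378 to 14393292 counts, and mitochondrially encoded genes took 5.762% to 7.737% of them. Of 12 osteoblast lineage markers, 7 were expressed at a level that could be tested, while SP7 and IBSP had no count in any library. Of 16 markers of other cell types, 2 passed the same filter, 5 had no count, and their summed level was 5.628 to 6.492 CPM in shControl and 5.031 to 6.756 in shSQLE.

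Ribosomal protein mRNAs took a large part of each library. The 91 genes together received 10.61%, 7.317% and 7.156% of all counts in shControl, and 9.584%, 10.18% and 8.4% in shSQLE. Every shSQLE library lay above shControl replicates 2 and 3, and every one lay below shControl replicate 1. The means were 8.363% ± 1.952 for shControl and 9.388% ± 0.906 for shSQLE (SD, n = 3 each), and their difference of 1.025 percentage points was smaller than the SD of the controls. Without shControl replicate 1 the difference was 2.151 points, without shControl replicate 2 or 3 it was 0.502 or 0.422, and without shSQLE replicate 2 it was 0.629. A share of polyadenylated RNA cannot tell fewer cells of a type from less RNA per cell.

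**Figure D1:**
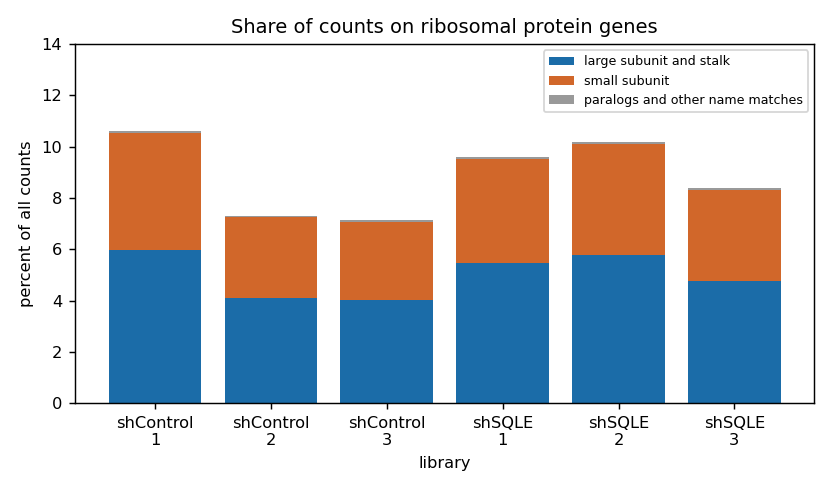
Percent of all counts in each of the 6 libraries that fell on ribosomal protein genes, stacked by subunit. The bars reach 10.61% in shControl replicate 1 against 7.317% and 7.156% in the other controls, and 8.4% to 10.18% in shSQLE.

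The genes were not alike in level. In CPM per kilobase of mRNA, the 77 subunit and stalk genes tested had a median of 1431, and their interquartile range, from 858.5 to 1922, spanned 2.239-fold. The most abundant were RPS2 at 3986, RPLP2 at 3492, RPSA at 2988, RPS24 at 2901 and RPS18 at 2816. RPS2 alone received 4.249% of all ribosomal protein counts. The mRNA length was that of the shortest transcript holding the canonical coding sequence. For 11 of the 84 genes tested, paralogs among them, it exceeds 1500 nt, so that their levels on this scale are less certain.

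Among the lowest were RPS10 at 12.37, RPL36A at 31.72 and RPL17 at 89.45, named here after their values were seen. Proteins of both subunits are among them, and each of the 3 genes overlaps another coding gene on its own strand. RPS10 shares 31.49% of its exonic bases with RPS10-NUDT3, RPL17 24.93% with RPL17-C18orf32 and RPL36A 8.398% with RPL36A-HNRNPH2, whereas the exons of these read-through genes lie over those of the single genes and took almost no counts. How the counting treated reads that fit several genes, or several places in the genome, is not given in the sources used here. Of the 84 genes, 8 share exons with another coding gene on the same strand and 78 have at least 1 named pseudogene, up to 133 for RPL21, so single levels are uncertain throughout and most of all for these 3.

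Across all 6 libraries no ribosomal protein gene passed an adjusted p of 0.05 in either direction, although nearly all had a higher mean in shSQLE. With edgeR's quasi-likelihood test, 0 of the 84 were called lower and 0 higher, where 354 of all 12450 genes (2.84%) were called lower and 46 (0.369%) higher. At an unadjusted p under 0.05, 2 of the 84 were higher, RPL5 and RPS10, and 0 were lower. DESeq2 also called 0 in each direction, where it called 4.02% of its 13824 genes lower and 1.14% higher. The log2 fold change was positive for 81 genes and negative for 3, with a median of 0.19 against -0.01 over all genes tested. It ranged from -0.19 to 0.43.

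The median hides a split among the controls. Relative to each gene's own mean over the 6 libraries, the median log2 level of the 84 genes was 0.33, -0.31 and -0.37 in shControl, and 0.14, 0.26 and -0.08 in shSQLE. Within each library most genes lay on the same side: 80 of 84 lay above their own mean in shControl replicate 1, 2 did in replicate 2 and 3 in replicate 3, and the numbers in shSQLE were 82, 83 and 12. The library labelled shControl replicate 1 was thus higher than both other controls for 81 genes, lower than both for 2, and the highest of all 6 libraries for 57. The 3 shSQLE libraries were above shControl replicates 2 and 3 for 79 genes. The groups of 3 did not overlap for 3 genes, RPL5, RPL22 and RPS10, all higher in shSQLE, where 10.0% of all genes tested lay that way without overlap and 12.1% the other way.

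**Figure D2:**
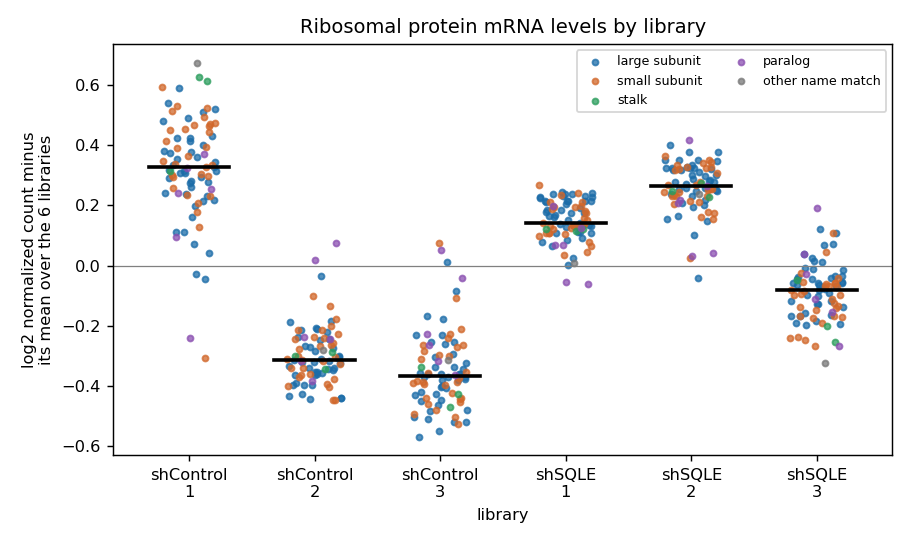
Log2 normalized count of each of the 84 ribosomal protein genes minus its mean over the 6 libraries (vertical axis), by library, with each point a gene coloured by subunit and the bar the median. The medians are 0.33, -0.31 and -0.37 in shControl and 0.14, 0.26 and -0.08 in shSQLE.

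Since 1 control decided the comparison, it was repeated without shControl replicate 1, a choice made with the position of that library known. Then 78 of the 84 genes were called higher in shSQLE by edgeR's quasi-likelihood test and 0 lower, where 15.6% of the 12570 genes tested were called higher and 18.3% lower. The median log2 fold change was 0.45 against -0.01 over all genes. The groups, now of 3 and 2 libraries, did not overlap for 79 genes, where 28.6% of all genes lay higher in shSQLE without overlap and 31.3% lower. The number called rested on the 5 libraries that were left: it was 45 without shControl replicate 2 as well (5.78% of all genes), 20 without shControl replicate 3 (2.36%), 49 without shSQLE replicate 1 (7.55%), 67 without shSQLE replicate 2 (12.2%) and 79 without shSQLE replicate 3 (25.8%). Where a second control was left out, a single control library stood against shSQLE, and its spread had to be taken from the shSQLE libraries, so those counts rest on the assumption that it varies as they do. Each time 82 or 83 of the 84 genes had a positive log2 fold change. With a library other than shControl replicate 1 left out of the 6, 0 of the 84 genes were called in either direction. Among all genes, these fits called 0.0318% to 0.103% higher and 0.801% to 1.58% lower. The median log2 fold change of the 84 fell to 0.08 on dropping shControl replicate 2 and to 0.07 on dropping shControl replicate 3. Dropping shSQLE replicate 2 gave 0.11, and dropping shSQLE replicate 3 gave 0.29. Of the 84 genes, 68 had a positive log2 fold change without shControl replicate 2 and 65 without shControl replicate 3.

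**Figure D3:**
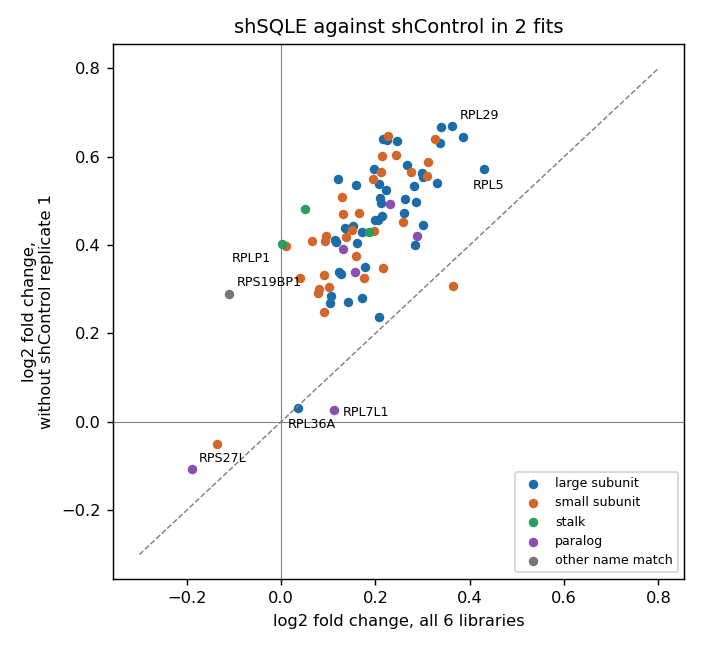
Log2 fold change of shSQLE over shControl for the 84 ribosomal protein genes with all 6 libraries (horizontal axis) and without shControl replicate 1 (vertical axis), with the dashed line where both are equal. Most points lie above the line, the median moving from 0.19 to 0.45, while RPS27L stays below 0 on both axes.

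The highest log2 fold change and the highest median by subunit were those of the large subunit, although the difference between subunits was not tested. All 43 of its genes had a positive log2 fold change, with a median of 0.21, and 42 were called without shControl replicate 1, where the median was 0.50. RPL5, which carries 5S ribosomal RNA into the ribosome together with RPL11, had normalized counts of 16772, 12880 and 12722 in shControl and 19143, 20345 and 17569 in shSQLE. It was higher in every shSQLE library than in every control (log2 fold change 0.43, SE 0.14, 95% interval 0.11 to 0.74), with an unadjusted p of 0.0138 and an adjusted p of 0.179 by edgeR's quasi-likelihood test, and without shControl replicate 1 it had a log2 fold change of 0.57 and the smallest adjusted p of all 84, 0.000418.

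RPL11 itself read 16240, 10333 and 9937 in shControl and 15370, 16645 and 12896 in shSQLE. Its first control lay between the shSQLE libraries, so the groups overlapped (log2 fold change 0.30, adjusted p = 0.59 with edgeR over 6 libraries, and 0.56, adjusted p = 0.0015, without shControl replicate 1). The same arrangement held for RPL23, another protein that binds MDM2, at 13827, 8895 and 8501 against 13750, 15202 and 11845. Its log2 fold change was 0.39, and 0.65 without that library. RPL29, whose start window is shown above, read 18504, 10981 and 10672 against 17594, 19318 and 14728, with log2 fold changes of 0.36 and 0.67. RPL13A, also a part of the interferon-gamma-activated inhibitor of translation complex, had 0.34 and 0.63. RPL32 had 0.34 and 0.67, with its first control, at 16994, just above its highest shSQLE library, at 16957.

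RPL22, an RNA-binding protein of the large subunit that is dispensable for translation as such, had its first control close to the others. It read 3731, 3388 and 3624 in shControl and 4096, 4262 and 4040 in shSQLE, with no overlap. The log2 fold change was 0.21 (SE 0.09, adjusted p = 0.376 by edgeR) over 6 libraries and 0.24 (adjusted p = 0.0285) without shControl replicate 1. RPL26, which binds the p53 mRNA, had log2 fold changes of 0.16 and 0.41, and RPL39, one of the smallest proteins of the ribosome, of 0.11 and 0.28. RPL36A was the only large subunit gene not called without shControl replicate 1. It read 318.7, 317.4 and 327.6 against 331, 316.4 and 341.2, a log2 fold change of 0.04 with a 95% interval from -0.23 to 0.30.

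The 3 stalk proteins recruit elongation factors to the ribosome. In RPLP1 and RPLP2 the first control stood 0.97 and 1.03 above the other controls on the log2 scale, against a median of 0.67 over the 84 genes. RPLP1 read 29675, 15917 and 14438 in shControl and 21109, 22735 and 16283 in shSQLE, so that every shSQLE library lay between the first control and the others. Over 6 libraries its log2 fold change was 0.00 with a 95% interval from -0.63 to 0.63, and without shControl replicate 1 it was 0.40 (SE 0.12, adjusted p = 0.0213 by edgeR). RPLP2 read 32678, 16708 and 15322 against 22926, 25643 and 18449 and moved from 0.05 to 0.48. RPLP0, which anchors both, moved from 0.19 to 0.43. For RPLP1 the sign over 6 libraries was negative when only library size was used for scaling (-0.02) or when at least 10 counts were asked of every library (-0.0021).

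Of the 31 genes of the small subunit, 30 had a positive log2 fold change, with a median of 0.16, and 29 were called without shControl replicate 1, with a median of 0.42. RPS2, at the entry of the mRNA channel, read 61647, 38072 and 37311 in shControl and 59063, 63288 and 47641 in shSQLE. RPSA, also known as the laminin receptor precursor, read 49534, 32068 and 31538 against 47949, 51575 and 40667. In both the first control lay within the range of shSQLE. Their log2 fold changes were 0.31 and 0.31 over 6 libraries, and 0.59 and 0.56 (adjusted p = 0.00185 and 0.00148 by edgeR) without shControl replicate 1.

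For several other small subunit genes the first control exceeded all shSQLE libraries. RPS6, the substrate of the S6 kinases, read 35946, 27052 and 26469 in shControl and 31563, 34086 and 29718 in shSQLE, a log2 fold change of 0.09, and 0.25 (adjusted p = 0.0354 by edgeR) without shControl replicate 1. RPS19, the gene most often mutated in Diamond-Blackfan anaemia, read 22423, 11995 and 11350 against 15919, 17597 and 12584, with values of 0.01 and 0.40, and the first turned to -0.01 with library size alone. RPS27A, whose protein is made as a fusion with ubiquitin, had 0.09 and 0.33. RPS27, with 0.04 and 0.33, and RPS18, with 0.15 and 0.44, had the first control highest too. RPS24, with 0.18 and 0.33, had its first control within the range of shSQLE.

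RPS10, of the small subunit, was low in counts and was higher in all shSQLE libraries, at 78.52, 88.62 and 90.25 against 112.6, 114.3 and 104.8. Its shControl replicate 1 was the lowest of the 6 libraries (log2 fold change 0.36, SE 0.15, adjusted p = 0.312 by edgeR). Without that library it was one of 6 genes not called (0.31, adjusted p = 0.147). These values carry the doubt on overlapping genes given above.

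The paralogs differed among themselves. Of 6 tested, 5 had a positive log2 fold change, and 4 were called without shControl replicate 1. RPL26L1 read 1066, 801.2 and 852.4 in shControl and 1143, 1152 and 1025 in shSQLE (log2 fold change 0.29, and 0.42 without the first control). RPL36AL (0.13 and 0.39), RPL22L1 (0.16 and 0.34) and RPL39L (0.23 and 0.49), a copy of RPL39 best known from testis, were the other 3 called. RPL7L1 had another order of libraries. It read 2607, 3119 and 3193 in shControl and 2969, 3152 and 3517 in shSQLE, with the first control as the lowest library, and its log2 fold change was 0.11 with that library and 0.03 without it.

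RPS27L, a paralog of RPS27 that p53 induces, was the lowest of the 84. It read 600.5, 529.9 and 489.5 in shControl and 482.7, 518.4 and 418.3 in shSQLE, with overlap, and its log2 fold change was -0.19 (SE 0.14, adjusted p = 0.627 by edgeR) over 6 libraries and -0.11 (adjusted p = 0.48) without shControl replicate 1. RPS27 itself had 0.04 and 0.33. Neither RPL7L1, RPL26L1 nor RPS27L has the pyrimidine run in the windows above, whereas RPL36AL has one of 15 bases. RPS19BP1, which shares only the name pattern and encodes a nucleolar partner of RPS19, read 2068, 1068 and 1043 against 1304, 1529 and 1036. Its log2 fold change was -0.11 over 6 libraries and 0.29 (adjusted p = 0.0997 by edgeR) without shControl replicate 1.

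The 54 remaining genes tested had log2 fold changes from 0.07 to 0.33 over 6 libraries, with adjusted p-values of at least 0.361 by edgeR. In the fit without shControl replicate 1 their values ran from 0.27 to 0.65, and all 54 were called higher. By start sequence, genes with the pyrimidine run (47 genes) had a median log2 fold change of 0.17, and those with promoter sequence but without it (20 genes) one of 0.19. The medians were 0.45 and 0.42 without shControl replicate 1.

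The position of shControl replicate 1 was shared by other short or GC-rich genes. Against the mean of the other controls on the log2 scale, the ribosomal protein genes had a median difference of 0.67 in that library. The 595 other genes tested whose canonical transcript was at most 1000 nt had 0.70. Over the genes tested outside the ribosomal proteins, parted by transcript length into 3 classes of near equal size, the median was 0.40 in the shortest, -0.05 in the middle and -0.40 in the longest class. By GC content of the transcript it was -0.51, -0.06 and 0.48 from the lowest to the highest class. The mean of the 3 shSQLE libraries, set against the same controls, ran the same way with smaller values, at 0.44 for the ribosomal protein genes, 0.33 for the other short genes, and 0.18, -0.02 and -0.20 by length. The part of transcript length and GC content in the difference of shSQLE was examined only by the correction below.

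**Figure D4:**
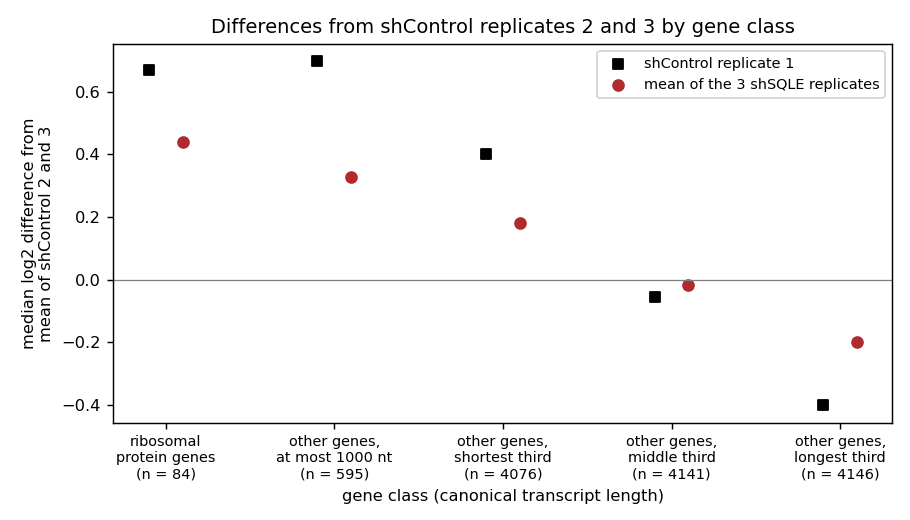
Median log2 difference from the mean of shControl replicates 2 and 3 (vertical axis) for shControl replicate 1 (squares) and for the mean of the 3 shSQLE libraries (circles), by gene class. Ribosomal protein genes (0.67 and 0.44) and other short genes (0.70 and 0.33) lie highest, and the class of longest transcripts lies lowest (-0.40 and -0.20).

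Among the ribosomal protein genes themselves the difference of shControl replicate 1 rose with the GC content of the coding sequence, which ran from 40.44% to 63.24%. Across the 83 genes other than RPS19BP1, Pearson's r was 0.59 and Spearman's rho 0.71, a description over genes that share the same 6 libraries. The log2 fold change over all 6 libraries had an r of 0.12 with GC content, and that without shControl replicate 1 one of 0.52. RPLP2, at 56.23% GC, was 1.03 higher in shControl replicate 1 than in the other controls, and RPL22, at 44.27%, was 0.09 higher. Other genes departed from this order. The difference was 0.63 for RPS27A at 43.8% GC, 0.71 for RPS2 at 61.77% and -0.19 for RPS10 at 54.95%.

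**Figure D5:**
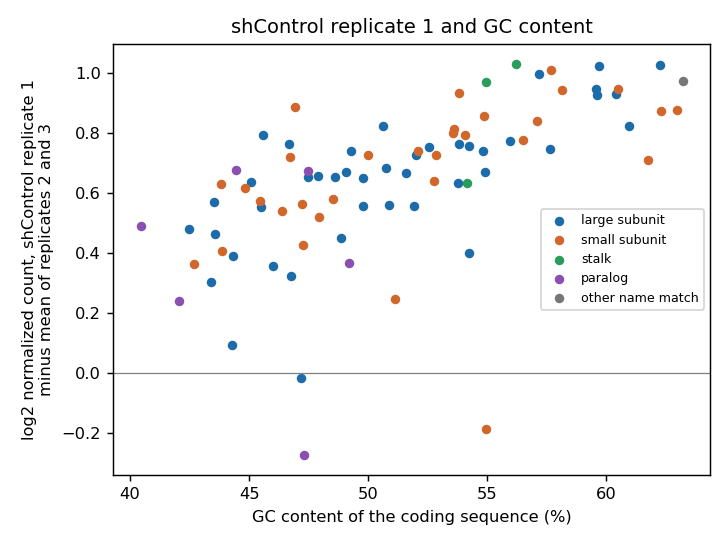
Log2 normalized count in shControl replicate 1 minus the mean of replicates 2 and 3 (vertical axis) against the percent GC of the coding sequence (horizontal axis), with each point 1 of the 84 ribosomal protein genes. GC-rich genes such as RPLP2 (1.03) lie highest, and RPL7L1 (-0.28), RPS10 (-0.19) and RPL36A (-0.02) lie below 0.

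A smooth correction for GC content and length within each library moved the median of all genes to 0.10, so values after it are read against that shift. Over 6 libraries the ribosomal protein genes then had a median log2 fold change of 0.21, and 9 were called higher and 0 lower, where 11.8% and 6.63% of all genes were. The 9 are RPL5, RPL8, RPL12, RPL13A, RPL18, RPL26L1, RPL29, RPS2 and RPS15. Without shControl replicate 1, in a correction added after seeing the data, 75 were called higher and 0 lower, where 33.5% and 9.40% of all genes were, and the median was 0.33 against 0.14. The correction took length and GC content from each gene's canonical transcript. For RPL23 that is 2706 nt, against the 625 nt used for its level. For RPL14 and RPL37 it is 7136 and 7573 nt. Corrected values of such genes are less certain. The 9 genes called over 6 libraries have canonical transcripts of 501 to 1127 nt.

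Several lists of related genes were set beside these values, each described by its counts. FAU, a ribosomal protein gene outside the name rule, encodes a fusion with a ubiquitin-like protein. It read 5791, 3228 and 2898 in shControl and 4575, 4909 and 3538 in shSQLE, with the first control as the highest library. Its log2 fold change of 0.13 (adjusted p = 0.889 by edgeR) became 0.50 (adjusted p = 0.00689) without that library.

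Translation factors and other genes with TOP mRNAs also had higher means in shSQLE. All 19 tested had a positive log2 fold change, with a median of 0.19 over 6 libraries and 0.22 without shControl replicate 1, and 0 were called over 6 libraries, with 3 at an unadjusted p under 0.05 by edgeR. With that library left out, 11 were called higher and 0 lower, against 15.6% and 18.3% of all genes. NPM1, the nucleolar chaperone nucleophosmin, read 28408, 29736 and 30190 against 39440, 39568 and 39545. The groups lay well apart with the first control as the lowest, and the log2 fold change of 0.42 (SE 0.09) had an adjusted p of 0.0518 by edgeR, just short of the threshold. EIF3E, a subunit of initiation factor eIF3, read 6639, 7340 and 7333 against 8466, 8388 and 8508, with 0.25 and an adjusted p of 0.262.

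Of 18 regulators of TOP mRNAs and of ribosomal protein genes, 1 was called higher and 0 lower. This was MYC, the transcription factor that drives ribosome production, at 381.1, 353.6 and 337.4 in shControl and 570.9, 591.4 and 544.7 in shSQLE. Its groups did not overlap (log2 fold change 0.67, SE 0.12, adjusted p = 0.023 by edgeR), and it was also called without shControl replicate 1 (0.72, adjusted p = 0.00026). In that fit 4 regulators were called higher and 3 lower, where 15.6% and 18.3% of all genes were. The smallest adjusted p among them was that of LARP1B, a paralog of LARP1 named here after its values were seen, at 472.3, 618.6 and 722 against 353.5, 349.9 and 411.1. Its groups did not overlap, and its log2 fold change was -0.70 over 6 libraries (adjusted p = 0.085 by edgeR) and -0.85 without the first control (adjusted p = 0.000151).

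Of 60 ribosome biogenesis factors, 56 had a positive log2 fold change, with a median of 0.14. None was called by edgeR over 6 libraries, with 7 at an unadjusted p under 0.05, and without shControl replicate 1 there were 26 called higher and 1 lower, where 15.6% and 18.3% of all genes were. GNL2, a GTPase of large subunit assembly, read 1490, 1484 and 1456 against 1825, 1874 and 1880 (log2 fold change 0.33, adjusted p = 0.129). RIOK1, a kinase of late small subunit maturation, read 315.2, 377.1 and 380.6 against 485.7, 498.7 and 462.5 (0.43, adjusted p = 0.148). In neither did the groups overlap. Among 16 genes of RNA polymerase I and its factors, 14 had a positive value, 0 were called and 2 had an unadjusted p under 0.05. These were the subunit gene POLR1G, with a log2 fold change of 0.38 and an adjusted p of 0.172, and TCOF1, the nucleolar treacle protein, with 0.37 and 0.273. Of the 16, 3 were called higher and 1 lower in the fit without the first control, beside 15.6% and 18.3% of all genes.

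Of 27 p53 targets tested, 16 had a negative log2 fold change and 11 a positive one, with a median of -0.07, and 1 was called. GDF15, a secreted stress-response cytokine, fell from 48.5, 28.94 and 39.24 in shControl to 9.792, 17.74 and 12.33 in shSQLE (log2 fold change -1.53, SE 0.32, adjusted p = 0.0475 by edgeR). When shControl replicate 1 was left out, 5 targets were called lower and 3 higher, where 18.3% and 15.6% of all genes were. Of the 7 osteoblast lineage markers tested, 6 had a negative log2 fold change and 1 a positive one, with a median of -0.28, and COL1A1, a chain of type I collagen, was called lower (-0.65, adjusted p = 0.0452). Without the first control 5 of the 7 were called lower and 0 higher, beside 18.3% and 15.6% of all genes. Of the markers of other cell types, PECAM1 (-1.67, adjusted p = 0.0933) and EPCAM (0.40, adjusted p = 0.362) were tested and not called.

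Genes of the mitochondrial ribosome served as the nearest other group. Of 77 tested, 68 had a positive log2 fold change, with a median of 0.18, and none was called over 6 libraries. The fit without shControl replicate 1 gave a median of 0.34, with 48 genes called higher and 0 lower, beside 15.6% and 18.3% of all genes. The difference between the cytosolic and the mitochondrial ribosome was not tested.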

How the data were processed

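The table deposited holds raw gene counts, which the authors obtained by trimming with fastp 0.20.0, alignment by STAR 2.7.9a (hg38) and counting by featureCounts 2.0, with no normalization. Which annotation was used, whether strand was taken into account and how reads with several alignments were counted is not given in the sources used here. Symbols, transcript lengths and GC content came from GENCODE release 44. Counts were analysed in R 4.3.3 with edgeR 4.0.16 (filterByExpr, TMM, quasi-likelihood test, Benjamini-Hochberg adjustment over all genes tested at 0.05, condition as the only term, all 6 libraries), with limma 3.58.1 loaded. DESeq2 1.42.0, which the study names, was an alternative, as were other size factors and filters, a replicate block, each library left out, and GC and length offsets by mgcv 1.9.3. Relative log2 levels used a pseudocount of 0.5. Totals were 12212378 to 14393292 counts per library, and this depth limits counting error only.

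The members and lists were chosen with earlier results of these data known. Members named one by one are those past the threshold, the 5 lowest and 5 highest log2 fold changes, the 5 smallest p-values without shControl replicate 1, the 5 highest levels, every paralog tested, every member not tested and a preset group of well-studied genes. In each list, genes past the threshold or else the 2 with the smallest p were named. Some genes that these rules name are not reported here.

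On simulated counts of 12374 genes for shSQLE against shControl, 93.18% of changes of log2 1 and 100% of log2 2 were called, and 3.98% of calls were on unchanged genes. Calling of changes smaller than log2 1 was not tested, and the ribosomal protein genes lay between -0.19 and 0.43. Whether these rates hold with a library set apart as shControl replicate 1 was not tested. No 2 libraries of the same group agreed within sampling noise. The chi-square per degree of freedom was 53.86 and 63.79 for shControl replicate 1 against shControl replicates 2 and 3. It was 2.832 between shControl replicates 2 and 3, and 3.399 to 15.92 within shSQLE.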

Additional observations from a re-analysis of the deposited data

How the results depend on the processing

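SQLE stayed called and lower under every alternative run (log2 fold change -3.12 to -2.88). Leaving out 1 library in turn gave 109 to 4264 genes called in place of 400, and 0 to 78 ribosomal protein genes called higher in place of 0, where the 78 came without shControl replicate 1. Over 6 libraries DESeq2 called 714 genes, and the GC content and length offsets called 2297 genes and 9 ribosomal protein genes. No ribosomal protein gene was called lower under any of these. Without shControl replicate 1, alternatives added after seeing the data called 70 to 78 ribosomal protein genes with other tools, scalings or offsets, and 45, 20 and 49 when shControl replicate 2, shControl replicate 3 or shSQLE replicate 1 was left out as well. With shSQLE replicate 2 or shSQLE replicate 3 left out as well, 67 and 79 were called. Why these counts differed was not tested. Some signs near 0 turned, in genes that were not called over 6 libraries. With library size only the log2 fold change was -0.022 for RPLP1, -0.015 for RPS19 and -0.0037 for RPL36A, and with at least 10 counts in every library it was -0.0021 for RPLP1. Leaving out 1 library in turn gave -0.27 to 0.29 for RPS19BP1, -0.18 to 0.40 for RPLP1, -0.15 to 0.40 for RPS19, -0.13 to 0.48 for RPLP2, -0.017 to 0.33 for RPS27A and -0.085 to 0.33 for RPS27.

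The replicate numbers do not pair the libraries: deviations from the group means of same-numbered libraries had correlations of 0.13, -0.39 and 0.51, and not every library correlated best with its own number. With a replicate block 396 genes were called, again with 0 ribosomal protein genes in either direction and a median log2 fold change of 0.22.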
